A study of Homo sapiens with 12 samples.

Results

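The transcription factor MYC and the proteins that share its partner MAX were followed through 9 genes of melanoma cells: MYC itself, MAX, the MAX-binding repressors MXD1, MXD3, MXD4, MXI1 and MNT, and the parallel pair MLX and MLXIP. Members were the rows of the deposited count matrix whose gene symbol equals one of these names, and each name had 1 row, so they are 9 of the 58307 named rows. Both cell lines used, A375 and SK-MEL-28, were established from human melanomas. They were given either etoposide, which traps topoisomerase II on DNA, or etoposide together with rapamycin, which inhibits mTOR complex 1 and induces autophagy. That gave 4 groups of 3 polyA-enriched libraries: A375 etoposide, A375 etoposide + rapamycin, SK-MEL-28 etoposide and SK-MEL-28 etoposide + rapamycin. All 4 groups carried etoposide, so no comparison shows rapamycin alone or cells without drug. Doses and hours of treatment of these 12 samples are not given in the sources used here. In GRCh38 MXI1 lies on the forward strand at chr10:110207605-110287365, MNT on the reverse strand at chr17:2384073-2401104 and MXD3 on the reverse strand at chr5:177301461-177312757. All 9 members are protein-coding, and each has 1 count per library, which does not tell isoforms apart. The study describes its RNA-seq replicates as biological replicates. The labels name no separate cultures for the libraries of a group, so p-values measure the spread between the 3 libraries of each group.

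MYC binds DNA only as a pair with MAX, mostly at the E-box CACGTG, and raises transcription of genes for ribosome building, nucleotide synthesis and cell cycle entry. The MXD proteins, MXI1 (also called MXD2) and MNT also pair with MAX, occupy the same sites and recruit SIN3 and histone deacetylases, which lowers transcription. MLX pairs with MLXIP (MondoA) or MLXIPL (ChREBP), which sense glucose phosphates, and can also pair with MXD1, MXD4 and MNT. MYC drives growth in melanoma as in many tumors, and mTOR complex 1 can act on MYC at translation and protein stability, which RNA levels do not show.

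Library totals ranged from 28190672 to 32499659 counts, and correlations of log2 CPM (CPM are counts scaled to a common library size, here with TMM factors) between libraries of a group lay between 0.9923 and 0.9935. Between libraries of different lines the highest correlation was 0.981, and the identity of the lines was not tested. Of the melanocyte markers, SOX10 at 166 to 579 CPM, S100B at 56.7 to 106 CPM and MITF at 12.1 to 29.7 CPM were present in every library. The pigment genes MLANA, PMEL, TYR and DCT did not exceed 2.99 CPM in any library of either line. Among markers of other cell types, KRT5, PTPRC and CD3E stayed at or below 0.632 CPM, DCN, PECAM1 and VWF reached at most 6.84 CPM, KRT14 reached 9.99 CPM and LUM 28.9 CPM. With rapamycin, MITF, S100B and DCT were called lower in A375 and MITF in SK-MEL-28. LUM was called lower in both lines, DCN also in A375 and PECAM1 in SK-MEL-28. Over all genes tested, 13.8% were called lower in A375 and 10.1% in SK-MEL-28. Of 6 melanocyte markers tested, 5 had negative values in A375 and 4 in SK-MEL-28, and none was called higher. Means were higher with rapamycin for SOX10 in A375 (432 and 474 CPM) and for PMEL and DCT in SK-MEL-28. The SOX10 groups overlapped, at 368 to 480 CPM with etoposide and 325 to 579 CPM with etoposide + rapamycin. Those of DCT in SK-MEL-28 overlapped as well, and those of PMEL did not. In A375, DCT was at means of only 0.71 and 0.22 CPM. The PECAM1 call was lost without any 1 of the 6 libraries (adjusted p from 0.0682 to 0.149 by edgeR) and the DCN call without 2 of them (up to 0.0871). The part of these markers in the results on the network was not tested, and in bulk RNA fewer cells of a type and less RNA per cell cannot be told apart.

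Promoters of the network genes were read from RefSeq (GRCh38.p14), as 250 bases before to 50 after each transcription start. Of the 9 members, 8 had at least 1 entry, 11 entries in all, and MYC had none. The E-box CACGTG, a palindrome that reads the same on both strands, was found in 3 entries, those of MXD4, MNT and MLX, against 7.26% of all 35116 entries in the table. They are the repressors MXD4 and MNT and the subunit MLX, and their upstream 250 bases are shown with the E-box in capitals because these are the sites that MYC, MXD and MLX pairs can all bind. The MXD4 stretch is chr4:2262110-2262359 on the reverse strand, with the E-box 238 bases before the start. That of MNT is chr17:2401061-2401310 on the reverse strand, with the E-box 193 bases before the start, and that of MLX is chr17:42566850-42567099 on the forward strand, with the E-box 50 bases before the start.
MXD4: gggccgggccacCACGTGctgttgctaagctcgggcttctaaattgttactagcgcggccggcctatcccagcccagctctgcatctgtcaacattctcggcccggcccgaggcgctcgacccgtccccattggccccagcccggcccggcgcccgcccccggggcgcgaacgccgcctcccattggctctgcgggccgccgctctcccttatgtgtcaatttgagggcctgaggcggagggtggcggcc
MNT: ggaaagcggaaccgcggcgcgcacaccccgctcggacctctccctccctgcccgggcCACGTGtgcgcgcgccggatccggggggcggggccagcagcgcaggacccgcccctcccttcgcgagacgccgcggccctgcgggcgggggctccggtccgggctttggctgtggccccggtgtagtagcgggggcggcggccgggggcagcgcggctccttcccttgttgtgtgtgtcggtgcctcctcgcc
MLX: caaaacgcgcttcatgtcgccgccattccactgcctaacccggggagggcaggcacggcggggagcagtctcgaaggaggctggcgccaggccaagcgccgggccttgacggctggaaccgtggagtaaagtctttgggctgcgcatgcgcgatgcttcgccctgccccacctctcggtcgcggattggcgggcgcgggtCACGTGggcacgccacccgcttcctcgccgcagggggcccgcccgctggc
The 3 entries of MXI1 held no CACGTG in these windows. A match is a description of letters, and binding was not measured in these libraries.

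MXI1, a repressor that competes with MYC for MAX, was the member whose response to rapamycin differed between the lines. In A375 its level was 60.6, 64.1 and 63.5 CPM with etoposide and 52.2, 54.0 and 55.9 CPM with etoposide + rapamycin. All 3 libraries with rapamycin lay below the 3 without. In SK-MEL-28 its level was 43.3, 40.8 and 47.0 CPM with etoposide and 53.1, 53.7 and 52.0 CPM with etoposide + rapamycin. There the 3 libraries with rapamycin lay above the others. The log2 fold change was -0.21 in A375 (standard error 0.052, adjusted p = 0.00929). The SK-MEL-28 value was 0.27 with a standard error of 0.0622 (adjusted p = 0.0081), each by the quasi-likelihood test of edgeR, adjusted over all genes by Benjamini-Hochberg. Opposite calls of this kind, at an adjusted p under 0.05 in each line, were made for 79 of the 18140 genes tested in both lines, 0.436%, against 1964 genes called in the same direction. In one fit of all 12 libraries, the response of MXI1 in SK-MEL-28 minus that in A375 was 0.49 on the log2 scale (95% interval 0.323 to 0.662, adjusted p = 0.00187 by edgeR). Leaving out each library in turn, the adjusted p of this difference stayed between 0.00144 and 0.00818. The fall in A375 was not called without etoposide + rapamycin replicate 1 (-0.18, adjusted p = 0.0512 by edgeR).

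**Figure D1:**
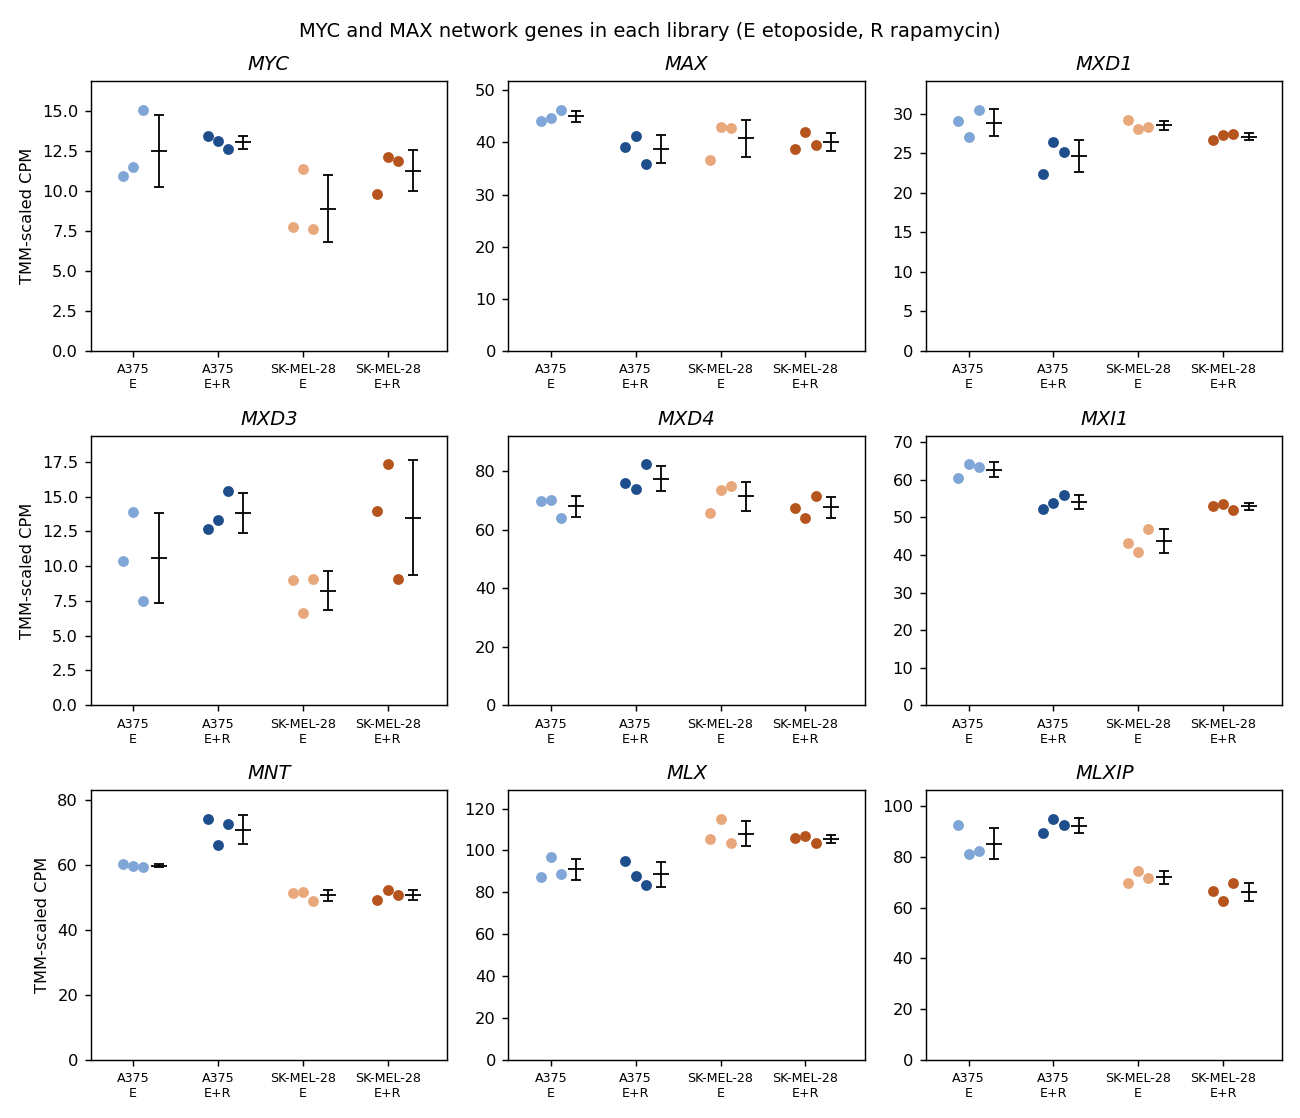
Level of each member in TMM-scaled CPM (vertical axis, from 0) in the 12 libraries, with 1 point per library, grouped by cell line and treatment (E etoposide, R rapamycin). The bar beside each group is its mean with the SD of 3 libraries. MXI1 runs from 60.6 to 64.1 down to 52.2 to 55.9 in A375 and from 40.8 to 47.0 up to 52.0 to 53.7 in SK-MEL-28.

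MXI1 also differed between the lines in the libraries without rapamycin. With etoposide alone its log2 level in SK-MEL-28 was 0.52 below that in A375 (log2 fold change -0.52, standard error 0.0568, adjusted p = 1.73e-06 by edgeR), and the libraries of the lines did not overlap. Compared in the libraries with rapamycin instead, an alternative chosen after seeing the data, the log2 fold change between the lines was -0.03 (adjusted p = 0.731 by edgeR). Mean levels with rapamycin were 54.0 ± 1.85 CPM in A375 and 53.0 ± 0.861 CPM in SK-MEL-28 (SD, n = 3). These comparisons of the lines share their libraries and one fit with the difference in response. Each value follows from the others, so they are not separate results.

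MYC itself showed no called response to rapamycin in either line. In A375 its level was 10.9, 11.5 and 15.1 CPM with etoposide and 13.4, 13.1 and 12.6 CPM with etoposide + rapamycin. One etoposide library, at 15.1 CPM, lay above all others, and the groups overlapped. The log2 fold change was 0.07 (95% interval -0.20 to 0.335, adjusted p = 0.735 by edgeR). In SK-MEL-28 its level was 7.74, 11.3 and 7.59 CPM with etoposide and 9.80, 12.1 and 11.9 CPM with etoposide + rapamycin, again with overlap, since etoposide replicate 2 lay above the lowest library with rapamycin. The log2 fold change was 0.34 (95% interval 0.00102 to 0.677, adjusted p = 0.157 by edgeR), and without etoposide replicate 2 it was 0.55 (adjusted p = 0.0214 by edgeR). The difference between the lines in this response was 0.28 (95% interval -0.176 to 0.736, adjusted p = 0.517 by edgeR). MYC counts were 237 to 429 per library.

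With etoposide alone, MYC was lower in SK-MEL-28 than in A375. The means were 8.89 ± 2.12 CPM and 12.5 ± 2.24 CPM (SD, n = 3). The libraries overlapped, and the log2 fold change was -0.49 (standard error 0.153, adjusted p = 0.021 by edgeR). This call depended on single libraries: it was lost without A375 etoposide replicate 3 (-0.33, adjusted p = 0.139), SK-MEL-28 etoposide replicate 1 (-0.40, adjusted p = 0.0966) or SK-MEL-28 etoposide replicate 3 (-0.39, adjusted p = 0.104). In the libraries with rapamycin the log2 fold change was -0.21 (adjusted p = 0.302 by edgeR).

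MAX, the partner that MYC and its rivals share, fell slightly in A375. Its level there was 44.1, 44.6 and 46.3 CPM with etoposide and 39.2, 41.3 and 35.9 CPM with etoposide + rapamycin, without overlap. On the log2 scale this was -0.21 (standard error 0.0643, adjusted p = 0.0285 by edgeR). The call was lost without any of 4 libraries, with a largest adjusted p of 0.12 without etoposide + rapamycin replicate 3. In SK-MEL-28 the levels were 36.7, 42.9 and 42.7 CPM with etoposide and 38.8, 41.9 and 39.6 CPM with etoposide + rapamycin, and the groups overlapped. There the log2 fold change was -0.03 (standard error 0.0725, adjusted p = 0.829 by edgeR).

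The other repressors that pair with MAX moved in both directions. MNT, which most cell types express, rose in A375, from 60.2, 59.8 and 59.5 CPM with etoposide to 74.2, 66.0 and 72.6 CPM with etoposide + rapamycin. The groups did not overlap, and the log2 fold change was 0.25 (standard error 0.0545, adjusted p = 0.00446 by edgeR, 0.00288 to 0.0275 when single libraries were left out). In SK-MEL-28 MNT was at 51.4, 51.7 and 48.8 CPM with etoposide and 49.2, 52.4 and 50.7 CPM with etoposide + rapamycin. These groups overlapped, and the log2 fold change was 0.00094 (95% interval -0.118 to 0.12). The response of MNT in SK-MEL-28 minus that in A375 was -0.24 (95% interval -0.403 to -0.0795), with an adjusted p of 0.0767 by edgeR and 0.0227 by DESeq2.

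MXD4, a MAD family repressor found mostly in cells that leave the cycle, was at 69.7, 70.2 and 64.0 CPM with etoposide in A375 and at 75.9, 74.0 and 82.3 CPM with etoposide + rapamycin. It rose without overlap between the groups, by 0.19 on the log2 scale (standard error 0.058, adjusted p = 0.0255 by edgeR). The call was lost without 3 of the 6 libraries (largest adjusted p = 0.127 by edgeR, without etoposide + rapamycin replicate 3) and with library totals in place of TMM (adjusted p = 0.0721). In SK-MEL-28 the levels were 65.7, 73.6 and 75.0 CPM with etoposide and 67.4, 64.1 and 71.4 CPM with etoposide + rapamycin, and the log2 fold change was -0.08 (adjusted p = 0.408 by edgeR). The difference between the lines was -0.27 (95% interval -0.459 to -0.075), with an adjusted p of 0.0989 by edgeR and 0.0369 by DESeq2.

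MXD3, which is transcribed in proliferating cells during S phase, had the largest rise of any member. In SK-MEL-28 it was at 9.02, 6.61 and 9.11 CPM with etoposide and at 13.99, 17.3 and 9.09 CPM with etoposide + rapamycin. Of the libraries with rapamycin, 2 lay far above the etoposide group and replicate 3 lay within it. The log2 fold change was 0.70 (standard error 0.198, adjusted p = 0.0262 by edgeR), the only member past a 1.5-fold change in either line. It was not called without etoposide replicates 1 or 2 or etoposide + rapamycin replicates 1 or 2, with the smallest value, 0.48 (adjusted p = 0.126 by edgeR), without etoposide + rapamycin replicate 2. In A375 the levels were 10.3, 13.9 and 7.51 CPM with etoposide and 12.7, 13.4 and 15.4 CPM with etoposide + rapamycin, and the log2 fold change of 0.39 was not called (adjusted p = 0.126 by edgeR). Without etoposide replicate 2 the value in A375 was 0.63 (adjusted p = 0.0115 by edgeR). The response of MXD3 in SK-MEL-28 minus that in A375 was 0.32 (95% interval -0.329 to 0.97).

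MXD1, a repressor induced when cells differentiate, was at 29.1, 27.1 and 30.5 CPM with etoposide in A375 and at 22.4, 26.4 and 25.2 CPM with etoposide + rapamycin. The groups did not overlap, but the log2 fold change of -0.22 was not called (standard error 0.0854, adjusted p = 0.0705 by edgeR). It was called with library totals (adjusted p = 0.0337) and in the fit of all 12 libraries (adjusted p = 0.0268). In SK-MEL-28 MXD1 was at 28.1 to 29.1 CPM with etoposide and 26.6 to 27.5 CPM with etoposide + rapamycin, again without overlap. The log2 fold change there was -0.08 and was not called (adjusted p = 0.498 by edgeR).

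MLX and MLXIP, the glucose-sensing arm, were not called for rapamycin in either line. MLX ranged from 83.3 to 96.9 CPM over the 6 libraries of A375 and from 103.6 to 115.1 CPM over those of SK-MEL-28. Its log2 fold changes were -0.03 in A375 (95% interval -0.163 to 0.0971) and -0.04 in SK-MEL-28 (95% interval -0.155 to 0.08). MLXIP was at 92.5, 81.1 and 82.2 CPM with etoposide in A375 and at 89.2, 94.97 and 92.6 CPM with etoposide + rapamycin. The groups overlapped through etoposide replicate 1, and the log2 fold change of 0.12 (adjusted p = 0.151 by edgeR) became 0.18 without it (adjusted p = 0.014). In SK-MEL-28 MLXIP was at 69.5, 74.5 and 71.7 CPM and then 66.4, 62.4 and 69.8 CPM, a log2 fold change of -0.12 (adjusted p = 0.149 by edgeR). The difference between the lines in this response was -0.23 (95% interval -0.412 to -0.0564, adjusted p = 0.118 by edgeR).

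In A375, 4 of the 9 members were called, MNT and MXD4 higher and MAX and MXI1 lower, where 28.1% of all 18844 genes tested were called. That background was 14.3% higher and 13.8% lower. In SK-MEL-28, 2 of 9 were called, MXI1 and MXD3, both higher, where 19% of 18897 genes were called, 8.83% higher and 10.1% lower. Libraries of the groups did not overlap for 5 members in A375, against 42.6% of all genes. In SK-MEL-28 they did not overlap for 2, MXI1 and the uncalled MXD1, against 35.9%. With a fold change over 1.5 required as well, no member (0) was called in A375, against 5.89% of all genes, and 1 was called in SK-MEL-28, against 4.99%. The test of the difference between the lines called 1 member, MXI1, and 5.62% of 20101 genes (1.62% with a difference over 1.5-fold, which MXI1 did not reach). No member was called in the same direction in both lines.

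**Figure D2:**
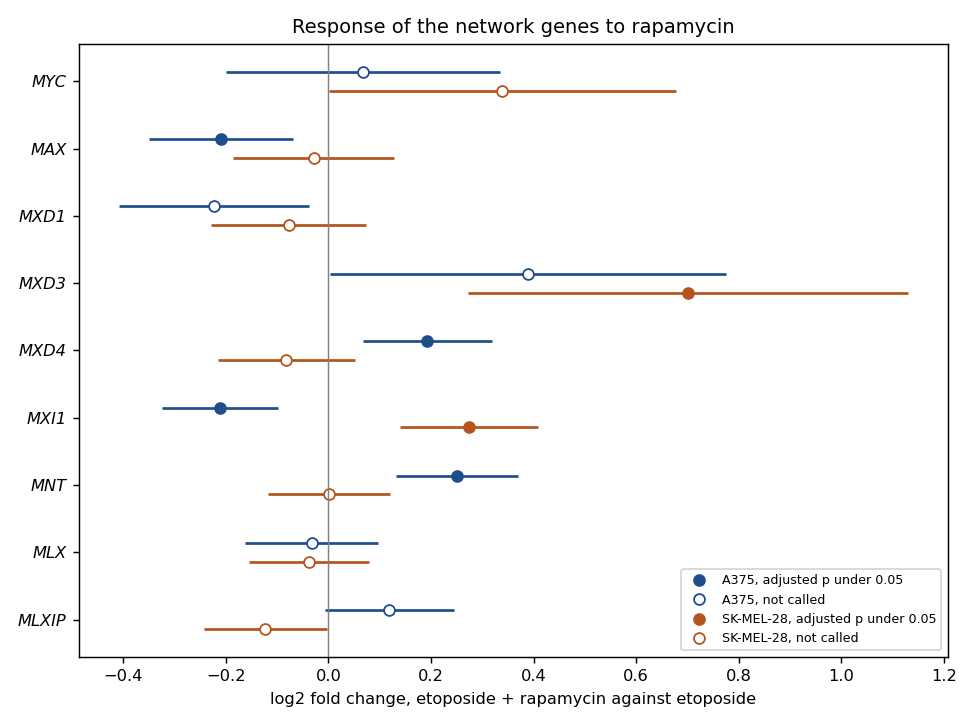
Log2 fold change of each member with rapamycin against etoposide alone (horizontal axis) in A375 (blue) and SK-MEL-28 (orange), with 3 libraries per group. Lines are 95% intervals and filled points have an adjusted p under 0.05. The intervals of MXI1 lie on opposite sides of 0, from -0.324 to -0.0979 in A375 and from 0.139 to 0.408 in SK-MEL-28.

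The level of MXD1 and MXD3 carries a limit from annotation. MXD1 shares its assembled locus with SNRNP27 (mean 759 counts, against 819 for MXD1) and MXD3 with RAB24 (mean 1575 counts, against 344), and how reads were divided between such names is not stated. PRELID1, with a mean of 6106 counts, overlaps MXD3 on the opposite strand, and whether counting used strand is not stated either. In SK-MEL-28, where MXD3 rose by 0.70, the log2 fold change was 0.02 for RAB24 and -0.06 for PRELID1, neither called. RAB24 was at 0.17 (adjusted p = 0.0637 by edgeR) and PRELID1 at 0.12 (adjusted p = 0.0878) in A375, where MXD3 was at 0.39. All of these A375 values were positive and none was called. The part of these neighbours in the MXD3 counts was not tested. In A375, where MXD1 changed by -0.22, SNRNP27 was at -0.06. MAX overlaps FNTB on the opposite strand (mean 575 counts, against 1234), and FNTB was at -0.04 in A375 (adjusted p = 0.885 by edgeR), where MAX fell. FNTB itself fell in SK-MEL-28 (log2 fold change -0.46, adjusted p = 0.0233 by edgeR), where MAX was at -0.03, and with etoposide alone it was higher in SK-MEL-28 than in A375 (0.79, adjusted p = 0.00153), where MAX was at -0.14. MLX overlaps PSMC3IP on the opposite strand (mean 291 counts, against 2953 for MLX), which rose by 0.43 in A375 (adjusted p = 0.00907 by edgeR).

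Between the lines with etoposide alone, 5 of 9 members were called, where 31.8% of all genes were, 15.1% higher and 16.7% lower in SK-MEL-28. Besides MYC and MXI1, MNT (log2 fold change -0.24, adjusted p = 0.00237 by edgeR) and MLXIP (-0.25, adjusted p = 0.00406) were lower in SK-MEL-28, and MLX was higher (0.25, adjusted p = 0.00342). The libraries of the lines did not overlap for 5 members, these 3 with MXI1 and MAX, against 43.3% of all genes. MAX was not called (-0.14, adjusted p = 0.136 by edgeR). None of the 5 passed a 1.5-fold change, as 12.5% of all genes did. In the libraries with rapamycin, an alternative chosen after seeing the data, the log2 fold change of MNT and of MLXIP was -0.48 (adjusted p = 2.15e-06 and 6.8e-06 by edgeR), MLX again 0.25 (adjusted p = 0.00266), and MXD4 was lower in SK-MEL-28 as well (-0.20, adjusted p = 0.0237). A cell line is 1 source, so these are differences between A375 and SK-MEL-28 and not between kinds of melanoma.

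Per kilobase of annotated exon, MLX was the most abundant member and MYC the least in all 4 groups. Levels were divided by the summed length of all annotated exons (GENCODE release 44, GRCh38), from 4255 bases for MLX to 13868 for MLXIP, so that genes can be set side by side. MYC was divided by 6109 bases, and its longest transcript has 3721. Which transcripts these cells made was not determined, so the order holds for these lengths only. MLX reached 21.4 ± 1.21 and 25.4 ± 1.44 CPM per kilobase with etoposide in A375 and SK-MEL-28, and MYC 2.04 ± 0.367 and 1.46 ± 0.347 (SD, n = 3). Below MLX came MXI1 and MXD4, then MAX, MNT and MLXIP, then MXD1, MXD3 and MYC. In A375 with etoposide the ranges of neighbours in this order did not overlap, except for MXD3 and MYC. In SK-MEL-28 with etoposide MAX and MNT also overlapped. With rapamycin the overlapping neighbours were MLXIP and MAX in A375, and MXD3 and MYC in SK-MEL-28. MXI1 and MXD4 exchanged places between A375 with etoposide (10.6 ± 0.324 and 9.89 ± 0.505 CPM per kilobase) and A375 with etoposide + rapamycin (9.14 ± 0.313 and 11.3 ± 0.633). With the longest transcript as length, MLX stayed highest and MYC lowest in all 4 groups. On this scale MAX stood above MXI1 in SK-MEL-28 with etoposide, with overlap. MXD3 stood above MXD1 in both lines with rapamycin, with overlap in SK-MEL-28 and without it in A375. MAX stood above MLXIP in A375 with rapamycin, without overlap.

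MYC made up 2.89% ± 0.551 of the summed length-scaled level of the 9 members in A375 with etoposide and 3% ± 0.08 with rapamycin, and 2.12% ± 0.446 and 2.65% ± 0.281 in SK-MEL-28 (SD, n = 3). The repressors MXD1, MXD3, MXD4, MXI1 and MNT together exceeded MYC RNA by 17.1 ± 3.12 and 16.6 ± 1.14 times in A375 without and with rapamycin. In SK-MEL-28 the same ratio was 21.2 ± 4.78 and 17.4 ± 2 (SD, n = 3). MAX alone exceeded MYC by 2.91 ± 0.155 to 4.61 ± 0.9 times over the 4 groups, and by 3.51 ± 0.187 to 5.57 ± 1.09 times with the longest transcript as length. The change of the repressor ratio with rapamycin was smaller than its SD with etoposide in both lines. The shares and ratios hold for the annotated lengths, and a shorter length for MYC would raise its share and lower the ratios. These ratios compare RNA, and MYC protein, which is short-lived, was not measured.

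**Figure D3:**
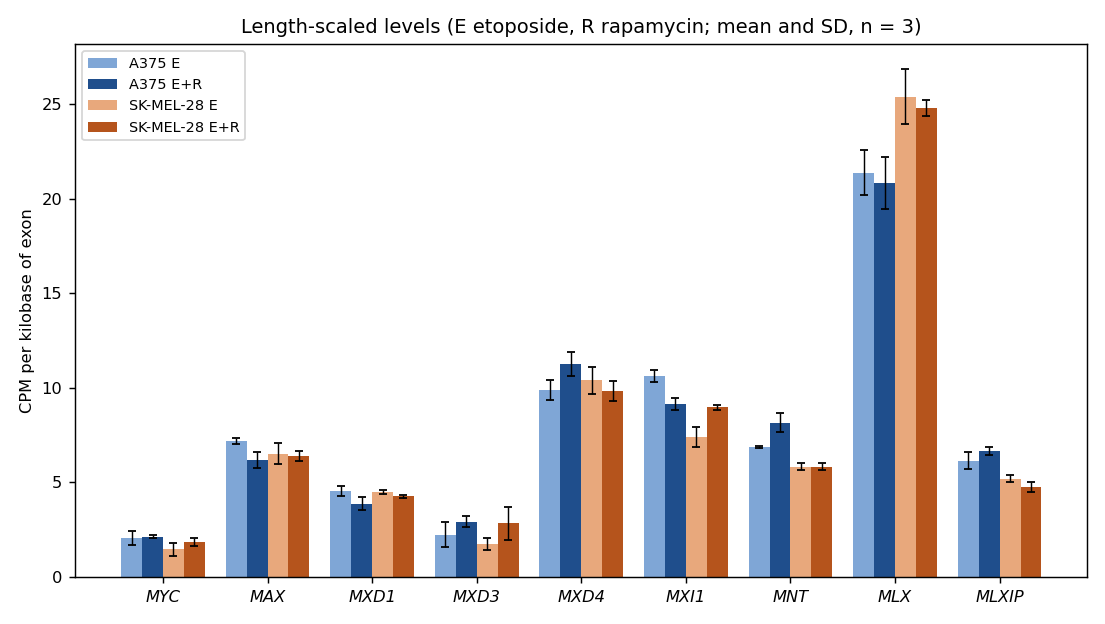
Length-scaled level of each member in TMM-scaled CPM per kilobase of annotated exon (vertical axis, from 0) in the 4 groups (E etoposide, R rapamycin). Bars are means and error bars the SD of 3 libraries. MLX stands at 20.8 to 25.4 and MYC at 1.46 to 2.13.

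Other genes of the network were low or flat. MYCN and MYCL are the tissue-restricted relatives of MYC. MYCN had 0 to 3 counts per library and was not tested. MYCL was at 0.403 to 1.37 CPM in A375, and in SK-MEL-28 at 1.21, 0.925 and 0.728 CPM with etoposide and 1.68, 1.71 and 1.79 CPM with etoposide + rapamycin, without overlap. It rose in SK-MEL-28 by 0.85 on the log2 scale (standard error 0.274, adjusted p = 0.0467 by edgeR, 0.0997 by DESeq2), a call lost without any of 5 of the 6 libraries (adjusted p up to 0.151). MGA, the giant MAX partner of the polycomb-like complex PRC1.6, stayed at 30.6 to 41.4 CPM, with log2 fold changes of 0.04 in both lines. MLXIPL was at or below 1.54 CPM in every library and was not called. PVT1, the noncoding neighbour of MYC, was at 16.9, 16.9 and 16.3 CPM with etoposide in A375 and 20.3, 18.2 and 20.5 CPM with etoposide + rapamycin. In SK-MEL-28 it was at 15.4, 18.3 and 15.7 CPM and then 20.1, 22.5 and 18.9 CPM. The libraries with rapamycin lay above the others in both lines. PVT1 rose in SK-MEL-28 by 0.31 (standard error 0.101, adjusted p = 0.0479 by edgeR), a call lost without any of 4 of the 6 libraries (adjusted p up to 0.176), and in A375 the value was 0.25 (standard error 0.0869, adjusted p = 0.0529).

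TXNIP, the best-known target of MLX and MLXIP and an inhibitor of thioredoxin, rose in A375. Its level was 11.8, 12.8 and 10.6 CPM with etoposide and 16.8, 16.8 and 15.3 CPM with etoposide + rapamycin, without overlap. The log2 fold change was 0.48 (standard error 0.103, adjusted p = 0.00411 by edgeR). In SK-MEL-28 it was at 28.3, 25.7 and 23.7 CPM and then 33.1, 27.8 and 27.5 CPM, with overlap and a log2 fold change of 0.18 (adjusted p = 0.204 by edgeR). With etoposide alone TXNIP was higher in SK-MEL-28 than in A375 by 1.14 (standard error 0.1, adjusted p = 1.36e-07 by edgeR). The arrestin-related ARRDC4 and the zinc finger gene KLF10, also targets of this arm, had log2 fold changes between -0.15 and -0.01 and were not called in either line, and PKLR was too low to test. In the test of the difference between the lines, 0 of the 3 targets tested, TXNIP among them, were called (values from -0.285 to -0.0084).

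Of 22 cofactors that MYC or the MXD proteins recruit, 8 rose and 1 fell in A375, with a median log2 fold change of 0.06, beside 14.3% of all genes that rose and 13.8% that fell. With library totals in place of TMM these counts were 6 and 4. When single libraries were left out, 5 to 10 rose and 0 to 2 fell, with 5 and 0 without etoposide replicate 3 or etoposide + rapamycin replicate 2, and 5 and 1 without etoposide + rapamycin replicate 3. The largest rise was that of EP400, a chromatin remodeler (0.36, standard error 0.0645, adjusted p = 0.0012 by edgeR). The fall was SAP18, a subunit of the SIN3 complex (-0.18, adjusted p = 0.0153), not called without 3 of the 6 libraries (adjusted p up to 0.0685). In SK-MEL-28, 3 rose and 3 fell, with a median of 0.01, beside 8.83% and 10.1% of all genes. No rise was called (0) without etoposide replicate 3, no fall (0) without etoposide replicate 2, and neither without etoposide + rapamycin replicate 3. ACTL6A, a subunit of chromatin remodelers, rose furthest (0.29, adjusted p = 0.0356 by edgeR), and the SIN3 complex genes SAP30 (-0.46, adjusted p = 0.0386) and SIN3A (-0.22, adjusted p = 0.0481) fell furthest. Each of these 3 calls was lost without 4 of the 6 libraries, with adjusted p up to 0.128 for ACTL6A, 0.157 for SAP30 and 0.182 for SIN3A. The abundant cofactors HCFC1 and HDAC1 were not called in either line.

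Of 16 genes that act on the stability of MYC protein, 4 rose and 2 fell in A375, and 2 rose and 3 fell in SK-MEL-28, where 28.1% and 19% of all genes were called. The PIM kinases, which phosphorylate and stabilize MYC, went different ways within the family. PIM1 rose by 0.57 in A375 (standard error 0.157, adjusted p = 0.0162 by edgeR) and by 0.87 in SK-MEL-28 (adjusted p = 0.0228). In each line the PIM1 call was lost without 4 of the 6 libraries (adjusted p up to 0.0689 in A375 and 0.0844 in SK-MEL-28), and its SK-MEL-28 value ran from 0.63 without etoposide replicate 3 to 1.22 without etoposide replicate 1. PIM3 rose by 0.44 (adjusted p = 8.87e-05) and 0.43 (adjusted p = 0.000723), and PIM2 fell by 0.27 (adjusted p = 0.00607) and 0.40 (adjusted p = 0.00177). With library totals the direction of these 3 genes did not change. STUB1, a ubiquitin ligase, rose in A375 (0.23, adjusted p = 0.00734), and GSK3B, which marks MYC for degradation, fell there (-0.16, adjusted p = 0.0144, up to 0.0557 when single libraries were left out). In SK-MEL-28 AURKA, which stabilizes MYC family proteins (-0.37, adjusted p = 0.019), and the ubiquitin ligase HUWE1 (-0.33, adjusted p = 0.00467) fell. The AURKA call was lost without 4 of the 6 libraries (adjusted p up to 0.0872). SET, an inhibitor of the phosphatase PP2A, had values of 0.11 and 0.13 and was not called.

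Genes that MYC is known to induce went both ways. Of the 58 in the list, which holds mostly nucleolar and ribosome-building genes, 18 rose and 9 fell in A375 (median log2 fold change 0.10), and 10 rose and 10 fell in SK-MEL-28 (median 0.01). Over all genes tested, 2691 rose and 2604 fell in A375 (median -0.01), and 1668 rose and 1914 fell in SK-MEL-28 (median 0.01). With library totals the list split 14 to 10 and 7 to 12, and all genes 2213 to 3364 and 1337 to 2379. When single libraries were left out, 13 to 16 of the list rose and 5 to 9 fell in A375, with 5 falls without etoposide + rapamycin replicate 3. In SK-MEL-28, 5 to 8 rose and 2 to 6 fell, with the fewest rises without etoposide + rapamycin replicate 3 and the fewest falls without etoposide replicate 3. MCM5, a subunit of the replicative helicase, rose from 17.6 ± 1.76 to 33.6 ± 1.83 CPM in A375 and from 18.3 ± 1.47 to 27.8 ± 0.37 CPM in SK-MEL-28 (SD, n = 3). Its log2 fold changes were 0.94 (adjusted p = 1.35e-05 by edgeR) and 0.60 (adjusted p = 0.000261). TCOF1, which acts in ribosomal RNA transcription, rose by 0.65 in A375 (adjusted p = 6e-05), and TMEM97, a sterol-regulated receptor, by 0.56 in SK-MEL-28 (adjusted p = 0.00185). HK2, the first enzyme of glycolysis, fell in both lines, by 0.58 in A375 (adjusted p = 2.25e-05) and 0.95 in SK-MEL-28 (adjusted p = 1.64e-06). The mitochondrial chaperonin HSPE1 (-0.35, adjusted p = 0.0138) in A375 and the helicase DDX18 (-0.24, adjusted p = 0.0276) in SK-MEL-28 fell next furthest, calls lost without 2 and 3 of the 6 libraries (adjusted p up to 0.0677 and 0.112). Of the most abundant genes of the list, the nucleolar chaperone NPM1 had log2 fold changes of 0.03 and 0.08 and was not called. HSPD1, the chaperonin that works with HSPE1, fell in A375 (-0.17, adjusted p = 0.00747 by edgeR) and was at -0.13 in SK-MEL-28 (adjusted p = 0.0796). FARSA, a subunit of a tRNA synthetase, was at 0.06 in A375 (adjusted p = 0.397 by edgeR) and fell in SK-MEL-28 (-0.18, adjusted p = 0.023), a call lost without 4 of the 6 libraries (adjusted p up to 0.115).

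The test of the difference between lines called 7 of these 58 genes, 6 with a smaller or more negative response in SK-MEL-28. They were PLK1 (-0.87), PPAN (-0.77), TCOF1 (-0.44), HK2 (-0.36), BOP1 (-0.33) and RRP12 (-0.26), with CBX3 (0.27) the other way, where 2.97% of all genes were called negative and 2.66% positive. Genes other than TCOF1 and HK2 are named here because the count is small, after their values were seen. Adjusted p-values by edgeR ran from 0.00207 for PLK1 to 0.0382 for HK2. The count of 6 depended on single libraries and on the tool: it was 1 without A375 etoposide + rapamycin replicate 3, 2 without A375 etoposide replicate 3 or SK-MEL-28 etoposide replicate 2, and 9 at most without A375 etoposide replicate 1. It was 12 by DESeq2, 3 when genes with as little as 1 count in some library were kept, and 0 when tested against a fold change of 1.5.

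A second list held 15 genes taken as classical E-box targets, 14 of them tested. In A375, 8 rose and 3 fell (median 0.33), and in SK-MEL-28, 5 rose and 3 fell (median 0.07), where 28.1% and 19% of all genes were called in either direction. The SK-MEL-28 rises were 3 without etoposide replicate 3 or etoposide + rapamycin replicate 3. CDCA7, a MYC-responsive cell cycle gene, rose by 1.10 in A375 (standard error 0.169, adjusted p = 0.00048 by edgeR) and 0.75 in SK-MEL-28 (adjusted p = 0.00601). HMGA1, an architectural chromatin protein, rose from 761 ± 29.7 to 1233 ± 35.7 CPM in A375 and from 676 ± 25.1 to 1043 ± 1.61 CPM in SK-MEL-28 (SD, n = 3). TERT, the catalytic subunit of telomerase, was called higher in A375 (0.78, standard error 0.254, adjusted p = 0.0358 by edgeR), a call lost without any 1 of the 6 libraries (adjusted p from 0.056 to 0.103) and by DESeq2 (0.0997), and its value was -0.03 in SK-MEL-28 (adjusted p = 0.97). TFRC, the transferrin receptor, fell by 0.56 and 0.77 in A375 and SK-MEL-28 (adjusted p = 6.79e-06 and 2.95e-07), LDHA, which makes lactate, by 0.40 and 0.66 (adjusted p = 2.13e-05 and 6.49e-07), and the cap-binding factor EIF4E by 0.48 and 0.24 (adjusted p = 0.000458 and 0.0406). The EIF4E call in SK-MEL-28 was lost without 5 of the 6 libraries, down to a value of -0.16 (adjusted p = 0.178 by edgeR) without etoposide + rapamycin replicate 3. EIF4A1, the abundant helicase that works with it, was at -0.07 and -0.03 and was not called. Its SK-MEL-28 libraries spread widely, at 1060, 620 and 1055 CPM with etoposide and 1066, 1004 and 613 CPM with etoposide + rapamycin. LDHA and TFRC are also targets of other regulators, hypoxia-inducible factor among them. LDHA fell further in SK-MEL-28, with a difference of -0.25 (adjusted p = 0.0147 by edgeR).

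Genes that MYC is known to repress also went both ways. Of 10 tested, 4 rose and 4 fell in A375, where 28.1% of all genes were called, and 3 rose and 4 fell in SK-MEL-28, where 19% were. GAS1, a growth arrest gene, rose from 19.4 ± 2.42 to 46.0 ± 1.61 CPM in A375 and from 6.76 ± 0.616 to 11.7 ± 0.981 CPM in SK-MEL-28 (SD, n = 3), log2 fold changes of 1.25 (adjusted p = 1.18e-06 by edgeR) and 0.79 (adjusted p = 0.000533). THBS1, an antiangiogenic matrix protein, rose by 0.72 and 0.56 (adjusted p = 1.5e-06 and 2.26e-06). CDKN1A, the p21 inhibitor of cyclin-dependent kinases, fell by 0.33 and 0.35 (adjusted p = 9.04e-05 and 3.84e-05), and the ferritin gene FTH1 by 0.32 and 0.27 (adjusted p = 0.000147 and 0.00286). NDRG1, a stress-induced metastasis suppressor, fell by 0.41 and 0.77 (adjusted p = 3.64e-05 and 3.71e-07), further in SK-MEL-28 (difference -0.35, adjusted p = 0.00201), and NDRG2 by 0.59 and 0.54 (adjusted p = 0.00152 and 0.00598).

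**Figure D4:**
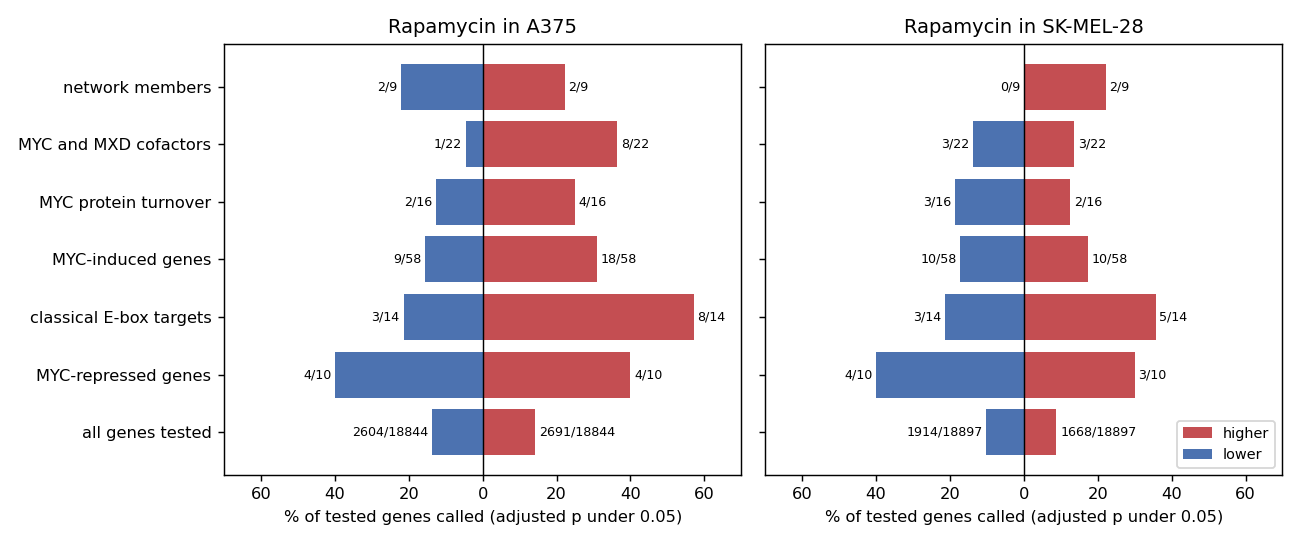
Percent of the tested genes of each list that were called at an adjusted p under 0.05 with rapamycin (horizontal axis, higher to the right in red, lower to the left in blue) in A375 and SK-MEL-28. Labels give genes called over genes tested. MYC-induced genes split 18 higher to 9 lower in A375 and 10 to 10 in SK-MEL-28, beside all genes at the bottom.

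The E-box CACGTG stood in 25 of 61 RefSeq promoter entries of the MYC-induced genes (41%), in 5 of 16 entries of the classical targets (31.2%) and in 0 of 12 entries of the MYC-repressed genes, against 7.26% of all entries. Entries were found for 47 of the 58, 13 of the 15 and 8 of the 11 genes. These lists were drawn from what is known of MYC, so the shares describe the lists and say nothing on occupancy in these cells.

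The genes whose level followed MYC most closely were MIR34AHG, the host gene of the p53-induced microRNA miR-34a (r = 0.947), BTN2A2, a butyrophilin (r = 0.947), and PEF1, a calcium-binding adaptor (r = 0.907). The measure was Pearson's correlation of log2 CPM over 12 libraries, taken as deviations from the mean of each cell line, among 10157 genes with a mean of at least 10 CPM. The points share 12 libraries, and the highest of so many correlations is a description. None of the 3 was called with rapamycin in either line, with log2 fold changes from 0.03 to 0.14.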

How the data were processed

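PolyA RNA of 12 samples was sequenced. The authors mapped clean reads to GRCh38 (hg38) with HISAT2 and estimated expression with StringTie and the Ensembl annotation, and deposited raw whole-number counts per gene and library, neither normalized nor pooled. How StringTie coverage became counts, and whether strand was used, is not given in the sources used here. Gene names were missing from 5 of the 58312 rows, which were not used. Depth was 28190672 to 32499659 counts per library. Groups came from the labels.

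Each line was tested alone with edgeR 4.0.16 in R 4.3.3 (filterByExpr with a minimum count of 10, TMM, quasi-likelihood), and both contrasts between lines came from one fit of 12 libraries. P-values were adjusted over all genes tested (Benjamini-Hochberg) and called under 0.05. Standard errors are log2 fold changes over the root of the F statistic. The tests were checked on simulated counts. Lengths and positions came from GENCODE release 44, promoters from RefSeq.

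The members and gene lists were chosen with earlier results of these data known. Named were the members, the rest of the network, PVT1 and the MLX targets, of each further list the 3 most abundant genes and the 2 called genes with the largest rise and fall per line, the 3 genes most like MYC and genes overlapping a member. The values of 2 genes this rule names are not reported here, and list counts include them. Alternatives were DESeq2 1.42.0, RLE and library-total scaling, 2 filters, the replicate number as a block, halved counts, rows of one name summed, one fit of all libraries, the 6 etoposide libraries alone, fold thresholds, another gene length and each library left out in turn.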

Additional observations from a re-analysis of the deposited data

Results flagged for a closer look

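The response of MXI1 to rapamycin differed between the cell lines by 0.49 on the log2 scale (SK-MEL-28 minus A375) in a test of the difference itself (adjusted p = 0.00187, quasi-likelihood test of edgeR). It was lower with rapamycin in 3 of 3 A375 libraries and higher in 3 of 3 SK-MEL-28 libraries than in every etoposide library of the same line. In the annotation a noncoding RNA on the opposite strand (742 bases) and a processed pseudogene on the same strand (780 bases) overlap MXI1. Both carry identifiers in place of symbols, so a search by symbol cannot show whether they have rows in the count matrix. Their part in the MXI1 counts was not tested.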

How the results depend on the processing

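Calls on members were few and several lay near the threshold. In A375 the 4 members called became 2 when every gene with 1 count in any library was kept, 2 with the replicate block and 0 with a fold change over 1.5 or a test against it, and ranged from 1 to 5 with single libraries left out. In SK-MEL-28 the 2 became 1 under that loose filter, 1 with the fold threshold and 0 with the test against it, and ranged from 1 to 2. For the difference between lines the 1 member became 3 with DESeq2, 2 with a filter of 10 counts in every library and 0 with either fold rule, and ranged from 1 to 2. For the lines under etoposide the 5 became 0 with either fold rule, and ranged from 4 to 5. Genes called fell from 5295 to 1109 with the fold threshold and 168 with the test against it in A375, from 3582 to 943 and 166 in SK-MEL-28, from 1130 to 326 and 14 for the difference, and from 6392 to 2522 and 1105 between lines. The difference called 1736 genes with DESeq2, 658 under the loose filter and 594 to 1315 with single libraries left out. The MYC share in A375 with rapamycin was 2.92% with the longest transcript as length.

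Some log2 values that were not called changed sign. MGA in A375 was -0.0099 with library totals. MNT in SK-MEL-28 was -0.0012 with DESeq2, -0.033 with library totals and -0.0025 with a filter of 10 counts in every library. The difference of MLX was -0.015 with DESeq2, -0.010 with RLE, -0.0054 under the loose filter, -0.015 with 10 counts in every library and -0.0049 with rows of one name summed. MXD1 between the lines was 0.0015 with DESeq2. In the etoposide + rapamycin libraries, compared after seeing the data, MAX was 0.047, MXD1 0.14 and MXD4 -0.20. With single libraries left out, values ran from -0.020 to 0.22 for MYC, -0.082 to 0.015 for MLX, -0.040 to 0.20 for MGA, -0.016 to 0.0059 for KLF10 and -0.68 to 0.054 for MYCL in A375. In SK-MEL-28 they ran from -0.098 to 0.0084 for MAX, -0.066 to 0.0085 for MLX, -0.023 to 0.15 for MGA, -0.024 to 0.027 for MNT and -0.054 to 0.0082 for KLF10. The difference of MLX ran from -0.050 to 0.056 and MXD1 between the lines from -0.056 to 0.027. The cause was not tested.

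Deviations of libraries with the same replicate number were not correlated over all genes kept (correlations of -0.0463 to -0.00499). With 3 libraries per group, counting noise can hide a shared effect, so this cannot show whether the numbers pair the samples. With the replicate block, MAX (adjusted p = 0.0592 by edgeR) and MXD4 (0.0662) were not called in A375.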
